A study of Mus musculus with 4 samples.

Results

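The comparison described here set stressed against undisturbed mice in a hippocampus depleted of microglia. Nuclei of the pool labelled RSD PLX5622 were compared with those of the pool labelled Control PLX5622, and 15060 of the 56834 nuclei of the series belonged to these 2 pools. A nucleus was kept when no more than 20% of its unique transcript counts (UMIs) came from mitochondrially encoded genes. This left 7382 nuclei of Control PLX5622 (22 of 7404 dropped) and 7678 of RSD PLX5622 (189 of 7867 dropped). Both pools came from male C57BL/6 mice of 5 to 7 weeks that ate PLX5622 in AIN-76A chow (1200 mg/kg) from 7 days before stress. RSD, repeated social defeat, placed an aggressive male CD-1 mouse in the home cage for 2 h a night on 6 nights, and Control mice were left alone. Each pool held the hippocampi of 3 mice combined before nuclei were isolated, so mouse and group cannot be told apart. Nuclei of the genotype pools were taken 14 h after RSD, and the sources used here give no separate time for the diet pools. The series holds 3 further pairs of Control and RSD pools: mice on plain AIN-76A chow (Vehicle), mice with intact interleukin-1 receptor 1 (WT), and mice lacking that receptor in neurons that express Vglut2 (KO, deleted by Vglut2-driven Cre).

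PLX5622 blocks CSF1R, the receptor for colony stimulating factor 1, on whose signal microglia depend to survive. Microglia are the resident macrophages of the brain, and under social stress they are known to release interleukin-1 and to draw monocytes from the blood. Social defeat also raises circulating glucocorticoids, which bind the receptors encoded by Nr3c1 and Nr3c2 and switch on a known group of genes, Fkbp5 and Sgk1 among them.

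Both pools were shallow. Control PLX5622 held 7651910 UMIs with a median of 598 UMIs and 419 genes per nucleus, and RSD PLX5622 held 7534594 UMIs with medians of 628 and 453. Median depth in the 4 sublibraries, the sequencing libraries among which the nuclei of every pool were divided, was 357 to 892.5 UMIs in the PLX5622 pools and 697 to 8645 in the other 6 pools. Nuclei thinned to 400 UMIs showed a median of 305 genes in Control PLX5622 and 315 in RSD PLX5622. Of the 15060 nuclei, 1680 carried a well barcode that recurred in a second sublibrary. With 1 pool a group there is no test between the 2 pools. Intervals below are exact 95% intervals of counting error only, which leave out differences between mice and between preparations, and fewer cells of a type cannot be told apart from fewer nuclei recovered. All comparisons of a class use the same 2 pools.

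The pool labelled Control PLX5622 stood apart from the 7 others in several genes, and every ratio below takes it as its base. Banf2 was at 595 CPM (UMIs of the gene scaled to a fixed library total) in Control PLX5622, at 87.6 in RSD PLX5622 and between 50.6 and 107 in the other 6 pools. The lncRNA Gm43016 was at 100.4, 16.6 and 13.1 to 21.1 CPM in the same order. For these genes the low RSD PLX5622 level matched the range of the other pools, and the Control PLX5622 level lay above it. Of the 388 genes lower in RSD PLX5622 by at least 1.5-fold, Control PLX5622 alone lay outside the range of the 6 other pools for 131, RSD PLX5622 alone for 95, both for 120 and neither for 42. Of the 1681 genes higher by that fold, the counts were 339, 605, 546 and 191. Over all 9682 genes counted they were 1989, 2374, 1910 and 3409. Control PLX5622 alone was thus outside for 33.8% of the lower and 20.2% of the higher genes, against 20.5% of all genes. For RSD PLX5622 alone the shares were 24.5% and 35.99%, against 24.5%, and for both pools 30.9% and 32.5%, against 19.7%. Genes past the fold were picked for a gap between these same 2 pools. That choice by itself puts a pool outside the range more often, so the excess over all genes is partly fixed by it. The comparison cannot be made without the Control PLX5622 pool, so the level in the other pools is given beside many of the genes named. Where it is not given, a ratio may owe as much to Control PLX5622 as to RSD PLX5622.

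Microglia-like nuclei were nearly absent from both pools, whose labels name the diet only. Nuclei in the cluster named microglia-like numbered 11 in Control PLX5622, 0.149% of the pool, and 14 in RSD PLX5622, 0.182%. The other 6 pools held 1.37 to 2.88%. The mean was 0.166% over the 2 PLX5622 pools and 2.13% ± 0.602 (SD, n = 6) over the others (exact permutation test over pools, two-sided, p = 0.0357, the smallest that the 28 arrangements allow). The summed level of 9 microglia markers was 35.7 and 45.1 CPM in the PLX5622 pools and 52.2 to 113 CPM in the others, and this difference missed the threshold (exact permutation test, p = 0.107).

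**Figure D1:**
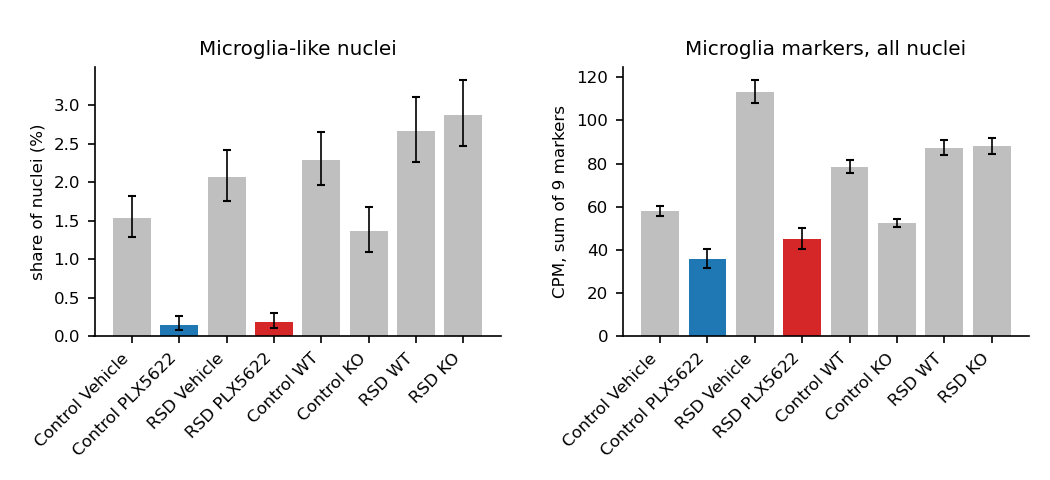
Share of nuclei in the microglia-like cluster (left, %) and summed CPM of 9 microglia markers over all nuclei (right) in each of the 8 pools, with 95% counting intervals as error bars. Both PLX5622 pools (coloured) lie below the 6 others (grey), at 0.149 and 0.182% of nuclei and at 35.7 and 45.1 CPM.

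The marker UMIs that remained lay mostly outside the microglia-like cluster. Csf1r, the target of the drug, had 13 UMIs in Control PLX5622 and 9 in RSD PLX5622, of which 0 and 1 fell in microglia-like nuclei, while Control Vehicle had 220 with 130 in that cluster. C1qa, a complement gene of microglia, had 0 UMIs in both pools, and Tmem119 had 1 and 2. P2ry12, a purine receptor gene of microglia, had 26 and 25 UMIs, of which 1 and 3 were in microglia-like nuclei. Between the 2 PLX5622 pools the microglia-like share differed by less than counting error (log2 ratio 0.29, -0.95 to 1.58). Markers of monocytes and other blood leukocytes summed to 1.18 CPM in Control PLX5622 and 1.86 CPM in RSD PLX5622.

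Interleukin-1 transcripts were at or near 0 in both pools. Il1b, the cytokine that microglia are known to make under stress, had 0 UMIs in Control PLX5622 and 1 in RSD PLX5622. Il1a had 3 and 1, and Il1rn, the receptor antagonist, had 0 in both. Il1b had 0 to 4 UMIs in the 6 pools with microglia, which held 15154151 to 58081835 UMIs each. No change of these cytokines could be read from counts this low. Il1r1, the signalling receptor, was at 20.8 CPM in Control PLX5622 and 17.8 CPM in RSD PLX5622 (log2 ratio -0.22, -0.57 to 0.12). Its partner Il1rap was at 190 and 166 CPM (-0.19, -0.30 to -0.08), and it was also lower under RSD in the Vehicle, WT and KO pairs (-0.30, -0.19 and -0.32).

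Glial and vascular nuclei took a larger share of the RSD PLX5622 pool than of the Control PLX5622 pool. Astrocyte-like nuclei numbered 145 (1.96%) in Control PLX5622 and 372 (4.85%) in RSD PLX5622, a 2.47-fold larger share (log2 ratio 1.30, 1.02 to 1.59). The same log2 ratio was -0.33 in the Vehicle pair, -0.78 in WT and 0.31 in KO. The 4 sublibraries of Control PLX5622 gave 2.04, 2.70, 1.67 and 1.73% and those of RSD PLX5622 4.62, 5.67, 5.11 and 4.23%. Sublibraries are splits of the same pools and not replicates. Summed astrocyte markers over all nuclei were at 1112 and 1373 CPM (log2 ratio 0.30), a smaller difference than that of the share of nuclei.

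Endothelial-like nuclei, from the lining of blood vessels, made up 0.257% (19 nuclei) of Control PLX5622 and 0.808% (62) of RSD PLX5622 (log2 ratio 1.65, 0.89 to 2.47). The share was also higher under RSD in the Vehicle, WT and KO pairs, by 0.84, 0.20 and 0.57. Vascular leptomeningeal or mural-like nuclei, the cells around those vessels, went from 0.135% (10) to 0.417% (32), with a log2 ratio of 1.62 (0.56 to 2.81) against 0.29, 0.57 and 0.74. Endothelial markers summed over all nuclei, which need no clustering, were at 52.9 and 226 CPM (log2 ratio 2.09, 1.94 to 2.25), and at 40.0 and 136 CPM in the Vehicle pair, 105 and 190 CPM in WT and 60.2 and 106 CPM in KO. Flt1, the VEGF receptor of endothelium, was at 9.80 CPM in Control PLX5622 and 71.1 CPM in RSD PLX5622, with 9.80 and 36.8 CPM in the Vehicle pair. Adgrl4, an endothelial adhesion receptor, was at 4.44 and 36.4 CPM in the PLX5622 pair. The endothelial marker sum was thus higher in the RSD pool of all 4 pairs.

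**Figure D2:**
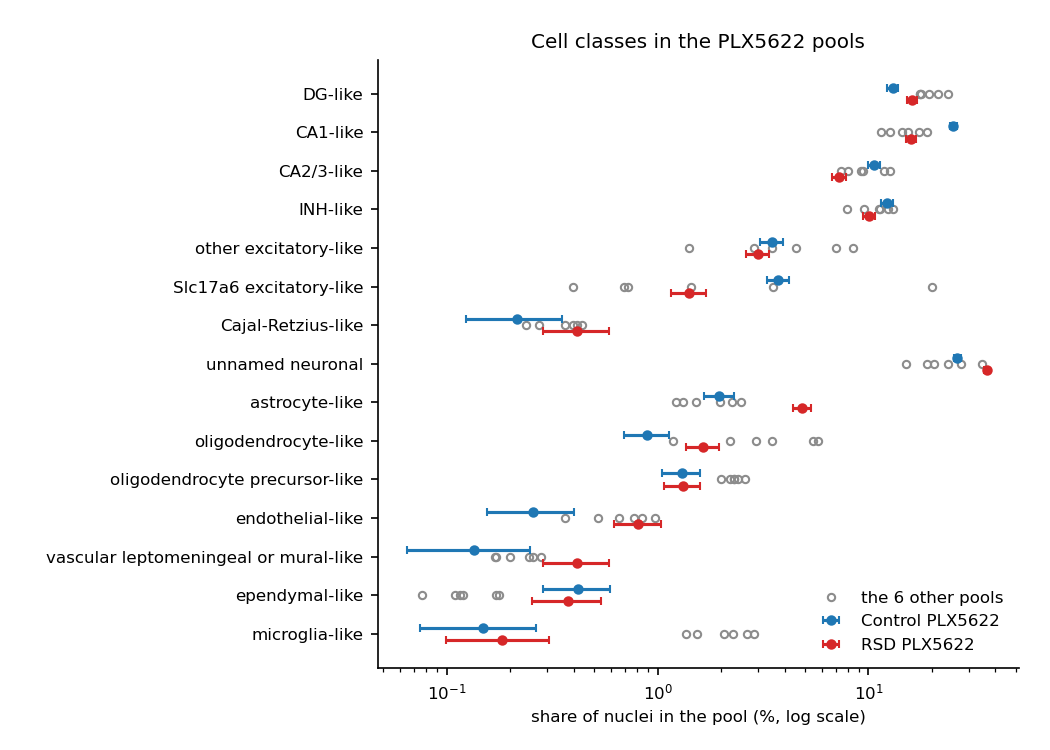
Share of each cell class in the pool (%, log axis) for Control PLX5622 and RSD PLX5622 with 95% counting intervals, and for the 6 other pools as open grey circles, where pools with 0 nuclei of a class are not drawn. Astrocyte-like nuclei moved from 1.96 to 4.85% and endothelial-like nuclei from 0.257 to 0.808%, while microglia-like nuclei were at 0.149 and 0.182%.

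Oligodendrocytes, which make myelin, were also a larger share of nuclei in RSD PLX5622. Oligodendrocyte-like nuclei were 0.894% of Control PLX5622 and 1.64% of RSD PLX5622 (log2 ratio 0.88, 0.44 to 1.33), against -1.31 in the Vehicle pair, -0.08 in WT and 0.67 in KO. Summed oligodendrocyte markers over all nuclei were nearly level, at 922 and 980 CPM (log2 ratio 0.09). A further cluster led by the oligodendrocyte genes Prr5l and Mag was left unnamed and counted with the neuronal clusters. With it added, the shares were 4.73 and 6.80% (log2 ratio 0.52, against -0.57, -0.09 and 0.30). Oligodendrocyte precursor-like nuclei did not differ beyond counting error, at 1.300 and 1.315% (0.02, -0.40 to 0.44), while the summed markers of these cells over all nuclei were lower, at 360 and 250 CPM (-0.52, -0.61 to -0.44). The 6 other pools held 1.99 to 2.61% oligodendrocyte precursor-like nuclei. Myelin debris was removed with beads during preparation, and its part in these shares was not tested.

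Neuronal clusters together made up 94.88% of Control PLX5622 and 90.41% of RSD PLX5622. Dentate gyrus (DG)-like nuclei, the granule neurons that receive the main cortical input, were 13.02% and 16.06% (log2 ratio 0.30, 0.18 to 0.43), while the other 3 pairs gave -0.15, -0.01 and -0.42. CA1-like pyramidal nuclei, the main output of the hippocampus, were 25.24% and 15.88% (-0.67, against -0.26, -0.42 and -0.58). CA2/3-like nuclei were 10.59% and 7.25% (-0.55), and inhibitory (INH)-like nuclei 12.26% and 10.05% (-0.29). Slc17a6 excitatory-like nuclei were 3.74% and 1.41% (-1.41), although this class ranged from 0.399 to 20.1% over the 8 pools.

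The neuronal shares rested on how nuclei were clustered. Neuronal clusters that met no naming rule held 26.33% of Control PLX5622 and 36.35% of RSD PLX5622. Of these, 1 cluster led by Gm36264, Cdk8 and Bc1 took 3.37% and 19.63% of the pools, with a median of 340 and 519 UMIs per nucleus, and 12.89% of RSD Vehicle against 0.15 to 1.11% of the remaining pools. Its share varied between sublibraries of a pool, from 0.735 to 9.41% in Control PLX5622 and from 13.57 to 27.03% in RSD PLX5622. Without thinning before clustering the CA1-like log2 ratio was -0.205 and the CA2/3-like ratio -0.020, and at Leiden resolutions of 0.5 and 2.0 the CA1-like ratio was 0.509 and 0.150. The DG-like ratio stayed above 0 under those settings, at 0.437 to 0.729. The summed CA1 markers over all nuclei were at 1676 and 1212 CPM and the DG granule markers at 894 and 977 CPM.

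Over all nuclei, more genes were higher than lower in RSD PLX5622. Of the 9682 genes that reached 100 UMIs in both pools together, 1681 (17.4%) were higher and 388 (4.01%) lower by at least 1.5-fold in CPM, and the median log2 ratio was 0.11. Scaling by TMM, which centres the bulk of the genes, moved the median to -0.0030 and gave 1210 higher and 714 lower, so that 62.9% rather than 81.2% of the genes past the fold were higher. TMM thus lowered all ratios by about the median, and those below 0.11 in size are not read as a direction.

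**Figure D3:**
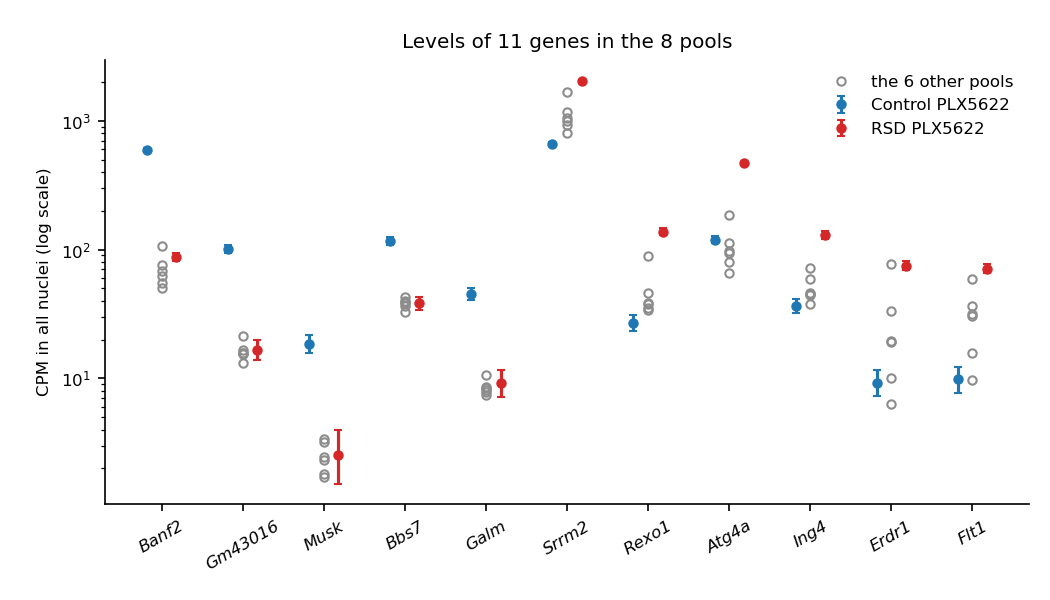
CPM over all nuclei (log axis) of 11 genes in Control PLX5622, RSD PLX5622 (both with 95% counting intervals) and the 6 other pools (open circles). For Banf2, Gm43016, Musk, Bbs7 and Galm the Control PLX5622 pool lies above the 7 others, as for Banf2 at 595 against 50.6 to 107 CPM.

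The genes with the firmest increases were Erdr1, Adgrl4, Flt1, Gm15404 and Rexo1. Erdr1, which lies in a repeated region near the sex chromosome ends and whose reads may be shared with copies, was at 9.28 CPM in Control PLX5622 and 75.1 CPM in RSD PLX5622 (log2 ratio 3.02, 2.66 to 3.39). It was higher under RSD in the other 3 pairs too, by 2.03, 2.38 and 0.96. Rexo1 was at 27.1 and 138 CPM (2.35), with 45.8 and 89.0 CPM in the Vehicle pair and 34.2 to 38.8 CPM in the WT and KO pools. Srrm2, which encodes a scaffold of the splicing machinery, was at 661 and 2032 CPM (1.62), with Control PLX5622 the lowest and RSD PLX5622 the highest of the 8 pools and 1162 and 1673 CPM in the Vehicle pair.

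Among the firmest decreases were Banf2, Gm43016, Bbs7 and Musk. Banf2 (mm39 chr2:143874944-143915899, plus strand, protein coding) had a log2 ratio of -2.76, and its 4 sublibraries ranged from 295 to 763 CPM in Control PLX5622 and from 47.5 to 113 in RSD PLX5622. Gm43016 (chr5:50700780-50980956, plus strand, lncRNA) had a log2 ratio of -2.60. Bbs7, a subunit of the complex that sorts proteins to cilia, was at 116 and 38.4 CPM against 32.7 to 42.8 CPM in the 6 other pools. Musk, the receptor kinase of the neuromuscular junction, was at 18.6 and 2.52 CPM. In each of these genes RSD PLX5622 lay near the other pools and Control PLX5622 far above them.

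Banf2 also headed the decreases within classes. It was among the 5 firmest in 6 of the 7 classes described, all but astrocyte-like nuclei, at 539 and 104 CPM in DG-like, 473 and 74.2 in CA1-like, 454 and 62.8 in CA2/3-like nuclei. In INH-like nuclei it was at 578 and 106 CPM.

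DG-like nuclei had 536 (16.8%) of 3198 genes higher and 187 (5.85%) lower. Atg4a, a protease that primes autophagy proteins, was at 115 CPM in Control PLX5622 and 472 CPM in RSD PLX5622 (log2 ratio 2.04, 1.73 to 2.36), with 107 and 170 CPM in the Vehicle pair and 67.5 to 114 CPM in the WT and KO pools. C1ql3, a secreted C1q-like protein of synapses, was at 57.4 and 236 CPM (2.04), with the 6 other pools at 76.6 to 164. Rexo1 (26.4 and 152 CPM), Fam133b (71.2 and 297 CPM) and Erdr1 (12.6 and 85.9 CPM) completed the 5 firmest increases. Atg4a, Fam133b and Erdr1 were also among the leading genes of the unnamed cluster led by Gm36264, Cdk8 and Bc1, which is outside this class. Whether their increases here are tied to that cluster was not tested. Atg4a was higher in astrocyte-like and Slc17a6 excitatory-like nuclei of RSD PLX5622 as well, so its increase was not particular to DG-like nuclei. Mmel1, a membrane metallopeptidase, was at 865 and 310 CPM (-1.48) against 27.8 to 184 CPM elsewhere, so both pools lay above the rest. Tmtc1 was at 447 and 207 CPM (-1.11), with 245 to 282 CPM in the other pools.

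CA1-like nuclei had 246 (7.14%) of 3444 genes higher and 132 (3.83%) lower, the smallest share past the fold of the 4 main neuronal classes. Dnajc21, a co-chaperone of ribosome assembly, was at 45.5 and 136 CPM (1.58). Bcan, which encodes the perineuronal matrix protein brevican, was at 25.4 and 78.8 CPM (1.63, 1.04 to 2.24) from 38 and 69 UMIs, with 32.9 to 90.8 CPM in the 6 other pools. Washc2 (72.3 and 180 CPM), Nmt1 (75.6 and 185 CPM) and ENSMUSG00000095041 (938 and 2330 CPM) were the other firmest increases, and for each of these 5 genes Control PLX5622 was the lowest of the 8 pools. Cdk8, a kinase of the Mediator complex, was at 1191 and 484 CPM (-1.30), with 2063 CPM in RSD Vehicle and 415 to 664 CPM in the other 5 pools. Cdk8 also led the unnamed cluster described above, which scored highest on CA1 markers and held 3.37% of Control PLX5622 and 19.63% of RSD PLX5622. Levels in CA1-like nuclei leave out nuclei of that cluster, and with no thinning before clustering the ratio of Cdk8 was -0.19.

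CA2/3-like nuclei had 358 (13%) of 2756 genes higher and 146 (5.3%) lower. Ttn, the giant gene of titin, was at 30.04 and 220.5 CPM (2.88, 2.32 to 3.47), with Control PLX5622 the lowest and RSD PLX5622 the highest of the 8 pools. Mndal was at 47.3 and 181 CPM (1.93). Fam133b and Srrm2 had log2 ratios of 1.96 and 1.56, which turned to -0.02 and -0.33 when only the 2 PLX5622 pools were clustered. In that clustering the CA2/3-like class was another set of nuclei, 2572 in number, and no cluster was named CA1-like. Lmo3, a transcriptional cofactor, was at 162 and 52.1 CPM (-1.64) against 61.6 to 90.1 elsewhere.

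INH-like nuclei, the GABA neurons, had 326 (9.87%) of 3304 genes higher and 141 (4.27%) lower. Mybbp1a was at 18.7 and 87.1 CPM (2.22), Rnpc3, of the minor spliceosome, at 64.1 and 197 CPM (1.62), and Srrm2 at 706 and 2024 CPM (1.52).

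The 2 remaining neuronal classes were small. In other excitatory-like nuclei 75 (8.13%) of 922 genes were higher and 54 (5.86%) lower, and Srrm2 (678 and 1688 CPM) and Tcf25 (133 and 386 CPM) led the increases. In Slc17a6 excitatory-like nuclei 123 (12.1%) of 1017 were higher and 135 (13.3%) lower. There Atg4a was at 169 and 920 CPM and Prkcd, a kinase marking thalamic neurons, at 178 and 696 CPM, while Kcnip4, a potassium channel partner, was at 15050 and 6887 CPM (-1.13). The 6 other pools lay at 58.5 to 211 CPM for Atg4a, 7.73 to 311 for Prkcd and 5235 to 11316 for Kcnip4.

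Astrocyte-like nuclei had 126 (19.4%) of 650 genes higher and 62 (9.54%) lower. Neat1 (chr19:5874736-5897132, minus strand), the lncRNA that builds paraspeckles, was at 263 CPM in Control PLX5622 and 1952 CPM in RSD PLX5622, from 28 and 571 UMIs (log2 ratio 2.89, 2.34 to 3.49). The 6 other pools lay at 100.1 to 251 CPM, so Control PLX5622 lay just above them and RSD PLX5622 far above. Its sublibraries gave 1610 to 2851 CPM and those of Control PLX5622 105 to 355. Atg4a was at 84.5 and 718 CPM (3.09, 2.13 to 4.23) and Prrc2c at 216 and 926 CPM (2.10). Cmss1 (47448 and 14716 CPM) and Cdk8 (6247 and 2075 CPM) were the firmest decreases. Gfap, the intermediate filament of reactive astrocytes, had 26 and 66 UMIs over all nuclei (3.4 and 8.76 CPM; 1.37, 0.69 to 2.08), which moved with the share of astrocyte-like nuclei (1.30), whose part in it was not tested. Within astrocyte-like nuclei its RSD effect differed from the other pairs by -0.97, which missed the threshold (edgeR, Benjamini-Hochberg adjusted p = 0.691).

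The glucocorticoid list of 20 genes had 9 members with at least 100 UMIs over all nuclei, of which 3 were higher and 0 lower by 1.5-fold, beside 17.4% and 4.01% of all genes, with a median log2 ratio of 0.23 against 0.11 over all genes. Members past the fold, here and in the lists that follow, are named after their values were seen where they are not among the 4 most abundant of their list. Nr3c2, the mineralocorticoid receptor, was at 800 and 606 CPM (-0.40, -0.46 to -0.35), and it was lower under RSD in the Vehicle, WT and KO pairs as well (-0.45, -0.44 and -0.60). Zbtb16, a transcription factor induced by glucocorticoids, was at 581 and 723 CPM (0.32, 0.26 to 0.37), close to the other pairs (0.34, 0.39 and 0.38). Fkbp5 (chr17:28618058-28737521, minus strand), the co-chaperone that dampens receptor sensitivity, was at 92.4 and 106 CPM (0.20, 0.05 to 0.35), against 0.15 in the Vehicle pair, 0.62 in WT and 0.89 in KO. Sgk1, a kinase induced by the receptor, was at 130 and 99.5 CPM (-0.38, -0.52 to -0.24), against -0.09, 0.01 and -0.16. Sublibraries of the 2 pools overlapped for Nr3c2, Fkbp5 and Per1 and did not for Sgk1, Zbtb16 and Hif3a. They are splits of the same pools and not replicates, and the share of all genes without overlap is not given here.

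The 3 members past the fold were Hif3a, Per1 and Tsc22d3. Hif3a, a hypoxia-inducible factor subunit, was at 6.53 and 27.3 CPM (2.06, 1.61 to 2.54) and was higher in the other pairs (0.92, 0.68 and 1.03). Its sublibraries ranged from 4.42 to 8.35 CPM in Control PLX5622 and from 23.6 to 42.2 in RSD PLX5622. Per1, a clock gene with glucocorticoid response elements, was at 39.5 and 67.3 CPM (0.77), close to the Vehicle (0.59), WT (0.85) and KO (0.68) pairs. Tsc22d3, the glucocorticoid-induced leucine zipper gene, was at 6.67 and 10.5 CPM (0.65, 0.13 to 1.19). By class, the list had 0 of 5 members higher and 1 lower in DG-like nuclei (16.8% and 5.85% of all genes) and 1 of 6 higher and 1 lower in CA1-like nuclei (7.14% and 3.83%). It had 0 of 4 past the fold in both CA2/3-like nuclei (13% and 5.3%) and INH-like nuclei (9.87% and 4.27%).

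**Figure D4:**
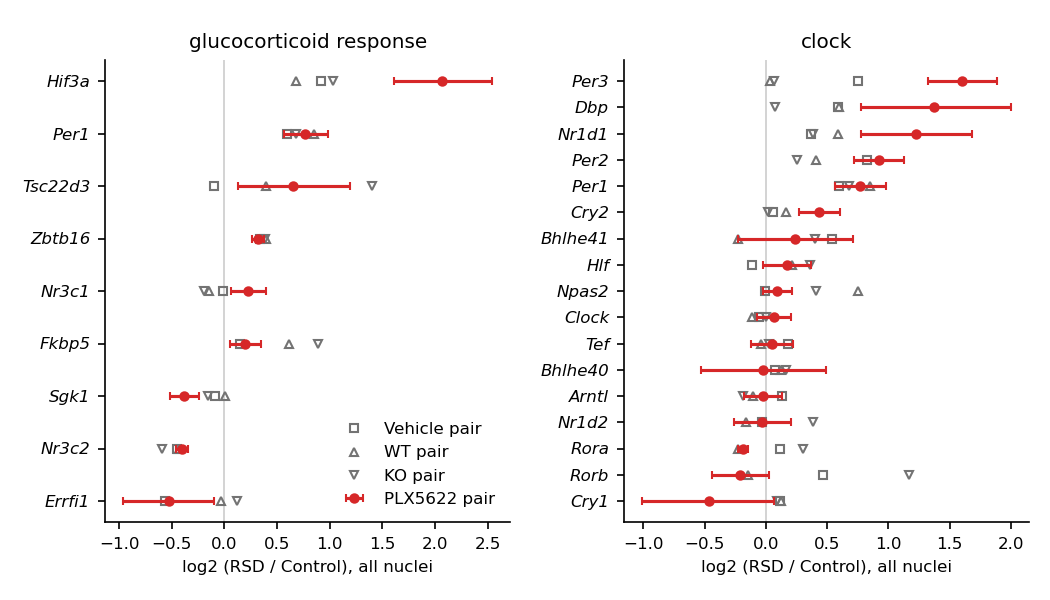
Log2 ratio of RSD to Control CPM over all nuclei for the glucocorticoid (left) and clock (right) genes with at least 100 UMIs in the PLX5622 pair (red, with 95% counting intervals) and in the Vehicle, WT and KO pairs (grey symbols). Hif3a at 2.06 and Per3 at 1.60 lie farthest to the right, and Nr3c2 lies below 0 in all 4 pairs.

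Clock genes had 5 of 17 measured members higher and 0 lower, where 17.4% and 4.01% of all genes were, with a median of 0.09. The 5 were Per3 (18.4 and 56.0 CPM, log2 ratio 1.60), Dbp (1.37), Nr1d1 (1.22), Per2 (0.92) and Per1 (0.77), which are periodic repressors and outputs of the circadian loop. The activators Clock (0.07) and Arntl (-0.02) did not differ beyond counting error. Per3 was at 0.75 in the Vehicle pair and at 0.04 and 0.06 in WT and KO.

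Activity genes, which neurons switch on after firing, had 1 of 9 measured members higher (17.4% of all genes) and 1 lower (4.01%), with a median of -0.11. Homer1, a synaptic scaffold, was at 154 and 133 CPM (-0.22, -0.34 to -0.09), against -0.14, 0.41 and 0.63. Nr4a1 was at 42.5 and 39.4 CPM (-0.11, -0.34 to 0.12), against 0.29, 0.71 and 0.55. The member past the fold upward was Npas4 (6.40 and 10.6 CPM, 0.20 to 1.27 on the log2 scale), and downward Fosl2 (17.6 and 11.4 CPM). The summed list was at 345 and 321 CPM (-0.10), and the other pairs were at -0.16, 0.46 and 0.49.

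The interleukin-1 list had 1 of 8 measured members higher, Irak1, a kinase below the receptor (12 and 26.1 CPM, 1.12), and 0 lower, so its share higher was below the 17.4% of all genes. Most of its UMIs belonged to Il1rapl1, a synaptic adhesion gene of the same family, at 1436 and 1110 CPM (-0.37). NF-kB genes had 1 of 7 higher (Relb, 7.71 and 15.0 CPM) and 0 lower, again below 17.4%. Of the interferon list only 3 genes were measured, of which 2 were higher, Stat2 (20.4 and 40.5 CPM, 0.99) among them, a list too short to set against the 17.4%. The reactive astrocyte list had 1 measured member, Cp (ceruloplasmin), which was higher (3.79 and 11.9 CPM, 1.66).

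GABA-A receptor subunits, the channels of fast inhibition, were lower together. Of 11 measured subunits 10 had a ratio below 0, 3 were lower by 1.5-fold against 4.01% of all genes, 0 were higher, and the median was -0.55. The share of all genes below 0 is not given here, and their median was 0.11. Gabrb1 was at 1159 and 875 CPM (-0.41), Gabrg3 at 697 and 570 CPM (-0.29) and Gabra2 at 360 and 247 CPM (-0.55). Gabrd (23.9 and 11.3 CPM, -1.08) and Gabra3 (-0.63) were among those past the fold. The summed level had a log2 ratio of -0.44, against -0.37, -0.10 and -0.21 in the Vehicle, WT and KO pairs. By class the sum moved by -0.48 in DG-like, -0.38 in CA2/3-like, -0.23 in INH-like and -0.09 in CA1-like nuclei, and all 8 measured subunits were below 0 in both DG-like and CA2/3-like nuclei. The median over all genes was 0.07 in DG-like and 0.02 in CA2/3-like nuclei. Counts of subunits below 0 in INH-like and CA1-like nuclei are not given here. The summed level of 6 general neuron markers over all nuclei was lower by a like amount, at 31608 and 23409 CPM (-0.43). Its relation to the GABA-A receptor sum was not tested.

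Glutamate receptor genes had 1 of 22 members higher (17.4% of all genes) and 1 lower (4.01%), with a median of -0.05. Gria1 (3496 and 3358 CPM, -0.06) and Grin2a (3188 and 3328 CPM, 0.06) were nearly level, Grm5 was at 2272 and 1834 CPM (-0.31), and Grm7, a presynaptic metabotropic receptor, at 2245 and 1465 CPM (-0.62). Grin2c was the member past the fold upward. CREB, BDNF and calcium signalling genes had 3 of 16 higher and 1 lower, with a median of 0.0041, and the share higher was near the 17.4% of all genes. Camk2b (581 and 1025 CPM, 0.82), Crtc1 (0.67) and Prkaca (0.60) were higher and Crem, a repressor of CREB targets, was lower (-0.83), while Kcnd2 (-0.37), Ryr2 (0.22), Camk2a (0.20) and Ppp3ca (-0.33) lay within the fold.

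Myelin genes had 5 of 9 measured members higher (17.4% of all genes) and 1 lower (4.01%), with a median of 0.60. Mobp (69.7 and 117 CPM, 0.75) and Mag (21.8 and 34.6 CPM, 0.67) were higher with Myrf (1.27), Mal (0.91) and Cldn11 (0.60), and Mbp was at 268 and 298 CPM (0.15). This list moved with the share of oligodendrocyte-like nuclei, 0.894 and 1.64%, whose part in it was not tested. Chaperone genes had 2 of 14 higher, Hsp90ab1 (59.6 and 123 CPM, 1.04) and Calr (0.89), and 0 lower, with a median of 0.24 and a share higher below the 17.4% of all genes.

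Nuclear noncoding RNAs had 2 of 9 higher (17.4% of all genes) and 2 lower (4.01%). Neat1 was at 46.9 and 196 CPM over all nuclei (2.06, 1.89 to 2.23), and the 6 other pools lay at 12.5 to 26.9 CPM. Kcnq1ot1, an imprinted lncRNA, was at 585 and 882 CPM (0.59). Rn7sk, the RNA that restrains elongating polymerase, was at 93.7 and 60.0 CPM (-0.64), against 1.45, 1.87 and 0.83 in the Vehicle, WT and KO pairs. Mir99ahg was the other lower member (-0.60), Malat1 was at 27398 and 29244 CPM (0.09), and Meg3 at 11497 and 8795 CPM (-0.39).

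Ratios followed the genomic span of genes. Over all nuclei the median log2 ratio of the PLX5622 pair was 0.36 for 783 genes shorter than 10 kb, 0.24 for genes of 10 to 30 kb, 0.10 for 30 to 100 kb, 0.00 for 100 to 300 kb and -0.20 for 579 genes longer than 300 kb. The Vehicle pair gave 0.32 and -0.19 at the ends of this scale, and the WT and KO pairs 0.03 at the short end and -0.02 and 0.01 at the long end. Genes longer than 300 kb held 41.5% of the UMIs of Control PLX5622 and 34.4% of those of RSD PLX5622. The median share of mitochondrial UMIs per nucleus was 0.093% in Control PLX5622 and 0.229% in RSD PLX5622. In the Vehicle pair it was 0.099 and 0.105%, and the relation of this share to the trend over gene span was not tested. GABA-A receptor genes spanned 13.5 kb (Gabrd, which had the lowest ratio) to 671 kb (Gabrg3), and the part of gene span in their ratios was not tested.

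**Figure D5:**
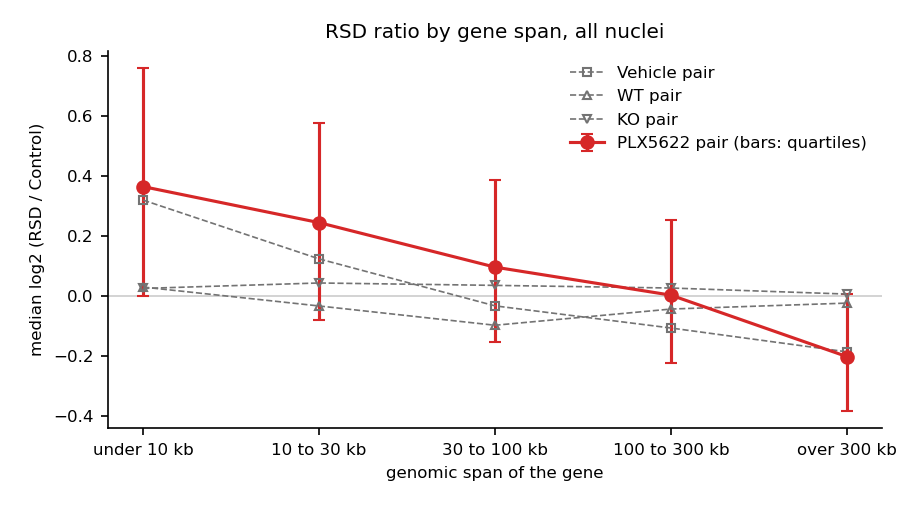
Median log2 ratio of RSD to Control CPM over all nuclei by genomic span of the gene, for the PLX5622 pair (red, bars are quartiles over genes) and the Vehicle, WT and KO pairs (grey). The PLX5622 pair goes from 0.36 below 10 kb to -0.20 above 300 kb, close to the Vehicle pair, while WT and KO lie near 0.

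Whether the effect of RSD in the PLX5622 pair differed from that in the 3 other pairs was tested with the other pairs as replicates, although PLX5622 is a single pair. The error draws on the spread of the RSD effect over the other pairs, which differ in diet or genotype (edgeR quasi-likelihood test with the pair as a term, 2 residual degrees of freedom, Benjamini-Hochberg adjustment). For each gene edgeR moderates this error with that of all genes. A p-value of this test thus does not measure the gene's own spread over the other pairs. In all nuclei 4 of 21249 genes (0.0188%) were lower and 0 higher at an adjusted p of 0.05, while 2373 had an unadjusted p under 0.05. DESeq2 called 44 higher and 37 lower, and left 18459 of its 26448 genes without an adjusted p. Among the 4 lower by edgeR were Banf2 (log2 difference -2.56, adjusted p = 0.00171), Gm43016 (-2.56, 0.00351) and Galm (-2.31, 0.0285), and for each of them Control PLX5622 lay far above the 7 other pools. Counts were also simulated at the depth of each pool, with a common dispersion and genes changed only in RSD PLX5622. There the test recovered 11% of 100 genes changed by 1 and 55% of 100 genes changed by 2 on the log2 scale. Smaller differences are thus mostly missed. It made 4 false calls beside 11 and 55 true ones, a rate that does not carry over to the 4 genes called here. A spread of the RSD effect between pairs was not simulated. No member of the 14 lists passed this test in all nuclei. The counts depended on the pairs used. Without the Vehicle pair the test called 88 higher and 54 lower, without the WT pair 71 and 88, without the KO pair 21 and 25, and without the pair as a term 0 and 0.

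In DG-like nuclei 39 (0.298%) of 13097 genes were higher and 36 (0.275%) lower by the same test, and DESeq2 called 15 and 25. DESeq2 left 17330 of its 18243 genes without an adjusted p here, so the 2 methods called from unlike sets of genes. Atg4a (log2 difference 1.97, adjusted p = 0.000179 by edgeR with Benjamini-Hochberg adjustment), Son (1.27), Srsf11 (1.33), both of the splicing machinery, ENSMUSG00000095041 (1.22) and Gm2087 (3.85) headed the genes with a larger RSD effect. Son was at 215 CPM in Control PLX5622 and 610 CPM in RSD PLX5622 against 351 to 452 elsewhere, and Srsf11 at 199.8 and 630 CPM against 199 to 329. Banf2 (-2.18), Mmel1 (-2.24), Rn7sk (-2.33) and Tmtc1 (-1.27) were among those that headed the others. Ntrk2, the receptor of BDNF, was at 647 CPM in Control PLX5622 and 400 CPM in RSD PLX5622, and at 482 to 651 CPM in the 6 other pools. Its log2 ratio was -0.69 (-0.88 to -0.51) in the PLX5622 pair, against 0.02, 0.29 and 0.08 in the Vehicle, WT and KO pairs, and the difference was -0.97 (edgeR, Benjamini-Hochberg adjusted p = 0.00448). Here RSD PLX5622 was the lowest of the 8 pools and Control PLX5622 lay within the others. Without the pair as a term the adjusted p for Ntrk2 was 0.530, and 0 genes were called in DG-like nuclei in either direction.

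In CA1-like nuclei 3 (0.0229%) of 13117 genes were higher and 17 (0.13%) lower, against 0 and 1 (Banf2) by DESeq2. ENSMUSG00000095041 (0.96), Trpm3 (1.01) and Pcdh17 (1.45) were the 3 higher, and Cdk8 (-2.02), Banf2 (-2.39), Mmel1 (-2.91) and Cmss1 (-1.52) were among those that headed the lower. The other pairs differed widely among themselves for several of these. In the Vehicle, WT and KO pairs the log2 ratios were 1.64, -0.25 and 0.56 for Cdk8. They were 1.05, 0.01 and -0.89 for Mmel1 and 1.02, -0.18 and 0.71 for Cmss1. The log2 ratio of Trpm3 was 0.25 in the PLX5622 pair and -0.70, -0.72 and -1.06 in the Vehicle, WT and KO pairs, so much of its difference lay in those pairs. For Pcdh17 the ratios were 0.97 and -0.63, -0.62 and -0.42 in the same order. Nuclei of the cluster led by Gm36264, Cdk8 and Bc1 (3.37% and 19.63% of the pools) are outside this class, and with no thinning before clustering the ratios of the PLX5622 pair were -0.19 for Cdk8, -0.23 for Mmel1 and -1.94 for Banf2. Fkbp5 was at 97 CPM (145 UMIs) in CA1-like nuclei of Control PLX5622 and at 55.9 CPM (49 UMIs) in RSD PLX5622, a log2 ratio of -0.79 (-1.29 to -0.32). The Vehicle pair was at 90.6 and 101 CPM, the WT pair at 71.4 and 112 CPM and the KO pair at 62.8 and 103 CPM (log2 ratios 0.15, 0.65 and 0.71). The difference of -1.38 passed edgeR's test (Benjamini-Hochberg adjusted p = 0.0247) but not DESeq2's (adjusted p = 0.99988), and edgeR gave adjusted p = 0.131 without the KO pair, 0.308 without the WT pair, 0.880 without the pair as a term and 0.469 with sums thinned to the shallowest pool. With no thinning before clustering, its ratio in the PLX5622 pair was -0.33. Rn7sk (-1.49, adjusted p = 0.0443) was another listed gene called by edgeR in CA1-like nuclei.

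INH-like nuclei had 3 (0.0211%) of 14245 genes higher, Peg3 (1.19), Srrm2 (1.15) and Rnpc3 (1.41), and 6 (0.0421%) lower, among them Banf2 (-2.24), Bbs7 (-2.03) and Gm43016 (-2.37). DESeq2 called Banf2 alone. Peg3, an imprinted zinc finger gene, was at 324 CPM in Control PLX5622 and 845 CPM in RSD PLX5622 against 532 to 630 elsewhere, so Control PLX5622 was the lowest and RSD PLX5622 the highest pool. CA2/3-like nuclei had 1 gene (0.00767%) of 13034 lower, Banf2 (-2.66), and 0 higher, with 1077 at an unadjusted p under 0.05. Other excitatory-like and Slc17a6 excitatory-like nuclei had 0 calls by edgeR and by DESeq2, with 663 of 9114 and 365 of 6108 genes at an unadjusted p under 0.05.

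In astrocyte-like nuclei Neat1 was the 1 gene (0.0177%) of 5663 with a larger RSD effect, by 3.00 on the log2 scale (edgeR, Benjamini-Hochberg adjusted p = 0.00317). DESeq2 gave Neat1 an adjusted p of 0.0742, and edgeR one of 0.314 without the WT pair and of 0.0294 without the pair as a term. Cdk8 (-2.06) and Cmss1 (-2.12) were the 2 lower (0.0353%), both at an adjusted p of 0.0139 by edgeR. Cmss1 was at 47448 CPM in Control PLX5622, above the 8788 to 26150 CPM of the 6 other pools, and RSD PLX5622 lay within them. The astrocyte-like class of Control PLX5622 held 145 nuclei, so its levels rest on few nuclei. In DG-like nuclei the difference for Neat1 was 2.10, which missed the threshold.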

How the data were processed

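Single nuclei of pooled mouse hippocampi were barcoded with a Parse Biosciences kit and divided among sublibraries, of which 4 were used here, each with nuclei of all 8 pools. The authors aligned reads to mm39 with the Parse pipeline (Seurat 4.1.1 is named in the submitters' notes for filtering), and the deposited files hold raw UMI counts per nucleus and gene. The annotation release is not given in the sources used here, and 56017 of 56748 gene identifiers matched GENCODE vM39, which gave coordinates.

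Nuclei over 20% mitochondrial UMIs were dropped. For clustering only, nuclei of all 8 pools were thinned to at most 1000 UMIs (2000 variable genes, 30 principal components, scanpy 1.11.5, Leiden resolution 1.0, neuronal clusters again at 0.6). A cluster was named from at least 3 markers at 0.2 or more of the highest cluster's level and a score 1.25 times the second best, a rule revised after cluster tables were seen. Doublets were not removed, since Scrublet's automatic threshold marked 0 nuclei in either pool. Leaving out 443 and 461 high-scoring nuclei was an alternative.

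Raw UMIs were summed per class and pool. Ratios of CPM have exact conditional binomial intervals and shares Clopper-Pearson intervals, at 95%. Genes were counted at 100 or more UMIs and 1.5-fold. Named genes were the 5 per direction with intervals farthest from 0, up to 4 of the most abundant members of each list, 8 genes fixed by name (Il1b, Il1a, Il1rn, Il1r1, Il1rap, Csf1r, Fkbp5 and Sgk1), and the 5 smallest p per direction of the test between pairs (3 where none was called). Some genes that these rules select are not reported here, though counts and sums include them. That test was edgeR 4.0.16 (R 4.3.3, TMM, filterByExpr) with DESeq2 1.42.0 as an alternative, tested first on simulated counts. Members and lists were chosen with earlier results of these data known. Other alternatives were scaling, filters, thinning, clustering settings, and leaving out a sublibrary or a pair.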

Additional observations from a re-analysis of the deposited data

Results flagged for a closer look

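In 66 comparisons of 4 Control or 4 RSD pools, 10 values lay farther from the other 3 than Dixon's 95% limit (0.829). Chance flags about 1 in 20 groups, a rate that does not apply to the genes, since they were named for the difference within the PLX5622 pair or between pairs. Of these, 7 belonged to Control PLX5622 and 2 to RSD PLX5622. In Control PLX5622 the CPM was 595 for Banf2, 116 for Bbs7, 100.4 for Gm43016, 45.1 for Galm, 18.6 for Musk and 12.8 for Gm25939, each above the other Control pools, and the oligodendrocyte precursor-like share was 1.30%, below their 2.30 to 2.41%. That share was not particular to Control PLX5622, since RSD PLX5622 held 1.315% and the other RSD pools 1.99 to 2.61%. In RSD PLX5622 Gm2087 was at 15.1 CPM and Gm44577 at 11 CPM, both above the other RSD pools. The other value was the Slc17a6 excitatory-like share of Control WT, 20.1% against 0.399 to 3.74% in the other Control pools.

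The effect of RSD in the PLX5622 pair differed from that in the other 3 pairs (edgeR, Benjamini-Hochberg adjusted p under 0.05) for more genes than are listed here. In DG-like nuclei alone 39 were higher and 36 lower. Listed are the 32 gene and class combinations reported among those with the smallest p and the list members, given as log2 differences. In all nuclei they were Banf2 (-2.56), Gm43016 (-2.56) and Galm (-2.31). In DG-like nuclei they were Gm2087 (3.85), Atg4a (1.97), Srsf11 (1.33), Son (1.27), ENSMUSG00000095041 (1.22), Ntrk2 (-0.97), Tmtc1 (-1.27), Banf2 (-2.18), Mmel1 (-2.24) and Rn7sk (-2.33). In CA1-like nuclei they were Pcdh17 (1.45), Trpm3 (1.01), ENSMUSG00000095041 (0.96), Fkbp5 (-1.38), Rn7sk (-1.49), Cmss1 (-1.52), Cdk8 (-2.02), Banf2 (-2.39) and Mmel1 (-2.91). In INH-like nuclei they were Rnpc3 (1.41), Peg3 (1.19), Srrm2 (1.15), Bbs7 (-2.03), Banf2 (-2.24) and Gm43016 (-2.37). CA2/3-like nuclei gave Banf2 (-2.66), and astrocyte-like nuclei gave Neat1 (3.00), Cdk8 (-2.06) and Cmss1 (-2.12).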

How the results depend on the processing

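Of the class shares, the log2 ratios of neuronal clusters as named moved most with the clustering, and the cause was not tested. Without thinning before clustering they were 0.526 for DG-like, -0.205 for CA1-like, -0.020 for CA2/3-like and -0.167 for unnamed neuronal nuclei, the last reversed from 0.47. With only the PLX5622 pools clustered, DG-like nuclei were at 0.525, CA2/3-like at -0.225 and unnamed neuronal at -0.145. No cluster was named CA1-like there. A cluster of 3657 nuclei that scored highest on CA1 markers was among the unnamed, and CA2/3-like nuclei numbered 2572. These classes are thus not the same sets of nuclei as in the main clustering. At Leiden resolution 0.5 the DG-like, CA1-like, CA2/3-like and unnamed neuronal ratios were 0.437, 0.509, -0.0051 and -0.444, and at 2.0 they were 0.729, 0.150, -0.241 and -0.589. Unnamed neuronal nuclei were at 0.359 among nuclei of at least 400 UMIs, and at 0.397 to 0.554 with each sublibrary left out in turn. Astrocyte-like nuclei kept a log2 ratio of 1.23 to 1.37 under every alternative. In 3 of the 4 other clusterings a cluster led by Flt1 scored highest on endothelial markers but was left unnamed. Its score on vascular leptomeningeal or mural markers was too close.

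Counts of genes higher and lower over all nuclei were 1681 and 388. TMM scaling gave 1210 and 714, nuclei thinned to 400 UMIs 981 and 234, a minimum of 30 UMIs 2666 and 791, a minimum of 300 UMIs 947 and 184, and a fold of 2 480 and 63. Of list members, 16 were lower under TMM and 13 higher after thinning. The sum of activity genes reversed to 0.0013 after thinning, and that of nuclear noncoding RNAs ranged from -0.046 to 0.041 with a sublibrary left out. With only the PLX5622 pools clustered, Fam133b was at -0.017 and Srrm2 at -0.33 in the CA2/3-like nuclei of that clustering, which are not those of the main one. The test between pairs called 0 genes higher and 4 lower in all nuclei. DESeq2 called 44 and 37, no expression filter gave 7 and 9, sums thinned to the shallowest pool 9 and 13, leaving out the Vehicle pair 88 and 54, the WT pair 71 and 88, and the KO pair 21 and 25. Without the pair as a replicate block the test called 0 and 0, and in the class tables Neat1 in astrocyte-like nuclei alone. The block is the diet or genotype that the Control and RSD pools share, and no mouse or litter ties a Control pool to an RSD pool. The microglia-like share of the PLX5622 pools stayed below that of the others when nuclei with at least 2 marker UMIs were counted (0.285 against 4.25%, exact permutation p = 0.0357), a measure that depends on depth. Genes under 100 UMIs were left out of the counts of genes, and the cytokines among them had too few UMIs for a ratio to be read. The ratio given for Gfap over all nuclei also rests on fewer than 100 UMIs.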
